A study of Rattus norvegicus with 18 samples.

Results

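The S100 genes were examined in 2 rat thyroid cell lines before and after stimulation with thyroid-stimulating hormone (TSH). The members were taken by symbol: 8 S100 genes were listed, of 4736 genes named singly by the array annotation, and they had 13 of the 8740 probe sets tested. S100a1 had 4 probe sets, S100b and S100g had 2 each, and S100a4, S100a8, S100a9, S100a10 and S100a7l2 had 1 each. FRTL5 is a differentiated thyrocyte line, and it was held without TSH in 5H medium for 5 days before the experiment. FRT/TSHR derives from thyroid cells that have lost differentiation, carries the TSH receptor by its name, and grew in a modified F12 medium (Coon's). Both lines were taken unstimulated (basal), at 30 min and at 17 h. The hormone was bovine TSH, at 0.1 U/L for FRTL5 and 1 U/L for FRT/TSHR. All cells, basal ones included, went without serum for 12 h beforehand. Precision is limited by the number of arrays, 3 in each of the 6 groups. It is not stated whether FRT/TSHR is 1 clone, and they name no untreated group at 30 min or 17 h. Line, medium and TSH dose differed together and cannot be told apart, and neither can TSH and time in culture. Values are log2 expression as deposited.

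S100 proteins are small calcium-binding proteins with paired EF-hand motifs that mostly act as dimers. On binding calcium most of them expose a surface that docks onto target proteins such as annexins, myosin heavy chains or membrane receptors. S100A10 is the exception, since it no longer binds calcium and sits constitutively on annexin A2. In epithelial tumours S100A4 is known as a protein of motile cells, and S100A8 and S100A9 are known as the calprotectin pair of neutrophils and monocytes.

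Along the genome 6 of the 8 genes lie on 1 chromosome and 2, S100b and S100g, lie on others, by the RefSeq gene order (GRCr8). In that order S100a1 comes first and S100a4 follows after 4 other protein-coding genes. S100a8, after 3 more, and S100a9 are direct neighbours, S100a7l2 is 1 gene further on, and S100a10 lies 57 genes beyond. RefSeq's promoter table held 4 of the 8 members (S100a4, S100a9, S100a7l2 and S100b), with 250 bases before and 50 after each gene start. Shown here are the promoters of S100a4, the member with the largest difference between the lines, and of S100a9, a member of the same cluster for which no difference was called. Capitals mark TATAAA.
S100a4, chr2:178388279-178388578, plus strand, GRCr8: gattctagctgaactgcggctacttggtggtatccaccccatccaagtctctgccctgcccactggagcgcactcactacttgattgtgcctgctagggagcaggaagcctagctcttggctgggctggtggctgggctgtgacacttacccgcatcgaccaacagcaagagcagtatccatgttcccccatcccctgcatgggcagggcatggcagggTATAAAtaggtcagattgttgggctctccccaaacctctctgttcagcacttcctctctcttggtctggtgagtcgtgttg
S100a9, chr2:178490573-178490872, minus strand, GRCr8: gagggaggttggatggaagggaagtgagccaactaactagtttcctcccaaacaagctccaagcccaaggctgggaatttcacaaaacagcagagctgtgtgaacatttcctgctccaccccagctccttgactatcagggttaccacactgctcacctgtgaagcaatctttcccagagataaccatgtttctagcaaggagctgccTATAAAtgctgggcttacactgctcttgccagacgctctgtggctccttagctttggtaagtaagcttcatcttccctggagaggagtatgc
Both strands were searched for 5 motifs. The TATA box was searched as TATAAA. A second motif was CCAAT. The GC box was searched as GGGCGG. For the cAMP response element its core TGACG was taken. The AP-1 site was searched as TGANTCA. The TATA box began at -31 in S100a4 and at -42 in S100a9, counted from the gene start, and it occurs in 14.2% of 33469 promoters of the same 300 bases. S100b held 3 matches to CCAAT (37.5% of promoters hold 1 or more). None of the 4 windows held the GC box, the cAMP response element core or the AP-1 site, which 33.1%, 21.2% and 7.33% of promoters hold. S100a7l2 held none of the 5 motifs.

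The first comparison asked how the unstimulated lines differ. S100a4 and S100a10 were higher in FRT/TSHR, and S100a1 was higher in FRTL5. S100a4, which encodes a binder of non-muscle myosin, was 88.1-fold higher in FRT/TSHR. S100a10, which encodes the annexin A2 ligand also called p11, was 16.6-fold higher. All 4 probe sets of S100a1, which encodes a dimer best known from heart muscle, were lower in FRT/TSHR, by 3.91-fold to 11.6-fold. In limma with Benjamini-Hochberg adjustment over all probe sets 6 of the 13 S100 probe sets passed at an adjusted p under 0.05 (called), against 25.5% of all probe sets. Of these 2 were higher and 4 lower, against 13.3% and 12.2% of all probe sets. The groups did not overlap for the same number, 6 of 13, against 37% of all probe sets. The 4 S100a1 probe sets read 1 gene, so the 6 calls stand for 3 genes.

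S100a4 read 4.85, 4.85 and 4.90 on the FRTL5 basal arrays and 11.39, 11.19 and 11.41 on the FRT/TSHR basal arrays (replicates 1 to 3). The 9 FRTL5 arrays lay between 4.85 and 5.14 and the 9 FRT/TSHR arrays between 10.55 and 11.53, with no overlap at any time. At basal the log2 difference was 6.46 ± 0.21 (SE, adjusted p = 2.0e-12), from 4.87 ± 0.03 to 11.33 ± 0.12 (mean ± SD, n = 3). No TSH comparison of S100a4 passed in either line. The FRT/TSHR arrays read 10.55, 11.25 and 11.53 at 30 min and 10.62, 11.35 and 11.33 at 17 h. Their differences from basal were -0.22 (95% interval -0.67 to 0.23) and -0.23 (-0.68 to 0.22). In FRTL5 the differences were 0.17 (-0.28 to 0.62) at 30 min and 0.16 (-0.29 to 0.61) at 17 h. These intervals draw on the spread of all 6 groups. The SD was 0.03 to 0.13 in the FRTL5 groups and 0.12 to 0.51 in the FRT/TSHR groups.

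S100a10 read 5.72, 4.88 and 4.95 on the FRTL5 basal arrays against 9.70, 9.10 and 8.91 on the FRT/TSHR basal arrays. The lines were again apart on every array, with 4.51 to 5.72 over all FRTL5 arrays and 8.49 to 9.99 over all FRT/TSHR arrays. The basal log2 difference was 4.05 ± 0.41 (adjusted p = 1.2e-06), from 5.18 ± 0.47 to 9.24 ± 0.41 (mean ± SD, n = 3). In FRTL5 the 3 arrays numbered 1 were higher, at 5.52 to 5.72, than the other 6, at 4.51 to 4.95. The arrays numbered 1 also stood apart along the beta-actin transcript, where their 3' minus 5' signal was 1.13 to 1.22 (log2), against -0.14 to 0.28 on the other 15 arrays. Without the FRTL5 arrays numbered 1 the S100a10 difference between lines was 4.32. No TSH comparison of S100a10 passed, and its intervals were wide: -0.23 (-1.10 to 0.64) in FRTL5 at 30 min and -0.18 (-1.05 to 0.69) in FRT/TSHR at 17 h.

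**Figure D1:**
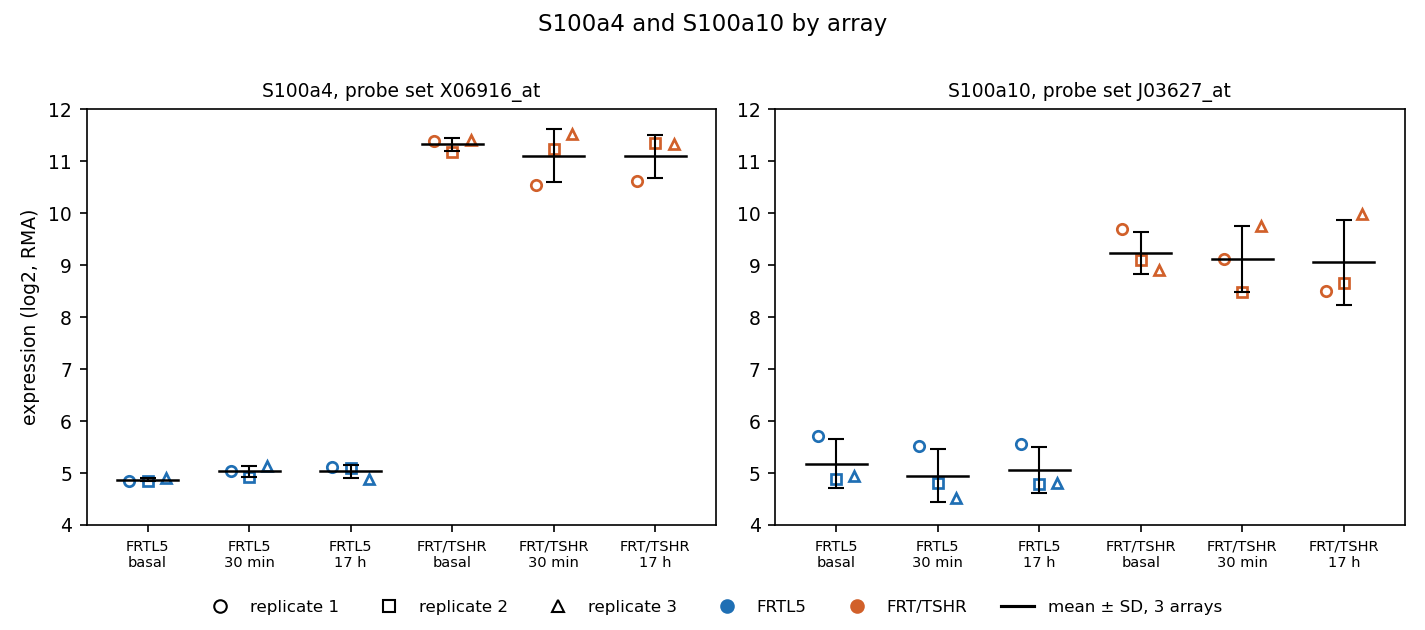
Log2 expression (vertical axis) of S100a4 and S100a10 on each array, by group (horizontal axis). Symbols are replicates, and bars are mean ± SD of 3 arrays. For both genes all FRT/TSHR arrays lie above all FRTL5 arrays, and S100a10 shows the FRTL5 arrays numbered 1 at 5.52 to 5.72.

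S100a1 was measured by 4 probe sets, here named by their array identifiers, of which rc_AI228548_at and rc_AI228548_g_at derive from the same sequence. Probe set rc_AI228548_g_at read 8.57, 8.70 and 8.62 at FRTL5 basal and 5.00, 5.07 and 5.21 at FRT/TSHR basal. Its log2 difference was -3.54 ± 0.10 (adjusted p = 3.7e-13). The other 3 probe sets differed by -1.97 ± 0.15 (rc_AI228548_at), -2.79 ± 0.20 (S68809_s_at) and -2.05 ± 0.14 (U26356mRNA_s_at), with adjusted p of at most 3.9e-08. All 4 therefore gave the same direction, with no overlap between any FRTL5 and any FRT/TSHR array, but not the same size. Over the FRT/TSHR arrays rc_AI228548_at and U26356mRNA_s_at lay between 6.19 and 6.73, rc_AI228548_g_at between 5.00 and 5.28 and S68809_s_at between 4.29 and 5.09. Across the 9 FRTL5 arrays the 4 probe sets moved together (pairwise Pearson r of 0.86 to 0.97), while across the 9 FRT/TSHR arrays 3 of them correlated with each other (0.45 to 0.81) and rc_AI228548_at with none of these (-0.19 to -0.05). All 6 calls between the lines held in each of the 6 fits that left out 1 array.

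The second comparison asked what 17 h of TSH did in FRTL5. S100a1 was lower at 17 h in all 4 of its probe sets, by 1.45-fold to 1.94-fold, and it was the only S100 gene called. Thus 4 of 13 S100 probe sets were called, against 3.56% of all probe sets, and all 4 fell, against 1.92% of all probe sets. The same number, 4 of 13, had groups that did not overlap, against 15.4% of all probe sets. No fall reached 2-fold.

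For rc_AI228548_g_at the 17 h arrays read 7.64, 7.76 and 7.63, each below the lowest basal array of 8.57. Its difference from basal was -0.95 ± 0.10 (adjusted p = 9.7e-05). Probe set S68809_s_at read 7.15, 7.62 and 7.36 at basal and 6.36, 6.73 and 6.19 at 17 h. That gave -0.95 ± 0.20 (adjusted p = 0.013). For rc_AI228548_at the values were 8.32, 8.56 and 8.74 at basal and 7.50, 8.07 and 7.94 at 17 h. Its difference was -0.71 ± 0.15 (adjusted p = 0.0138). Probe set U26356mRNA_s_at went from 8.28, 8.56 and 8.53 to 7.64, 8.08 and 8.05. This was the smallest fall, -0.53 ± 0.14 (adjusted p = 0.0439). In each probe set the basal and 17 h arrays were fully separate.

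These 4 calls were not equally firm. The call of rc_AI228548_g_at held in all 6 fits without 1 array (adjusted p up to 0.00117). For rc_AI228548_at, leaving out FRTL5 basal replicate 3 gave an adjusted p of 0.0565, and leaving out FRTL5 17 h replicate 1 gave 0.0508. For S68809_s_at, FRTL5 basal replicate 2 (0.0638) and FRTL5 17 h replicate 3 (0.0674) each ended the call when left out. That of U26356mRNA_s_at was kept in 1 of 6, the fit lacking FRTL5 basal replicate 1, and the highest adjusted p was 0.172 (FRTL5 17 h replicate 1 left out). It was also lost without all FRTL5 arrays numbered 1 (0.110) and with an intensity trend in the variance prior (0.0742). A fit of only the 6 arrays compared kept 1 of the 4 calls, rc_AI228548_g_at (0.0137). With 1 array left out the differences themselves stayed between -0.39 and -1.11.

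**Figure D2:**
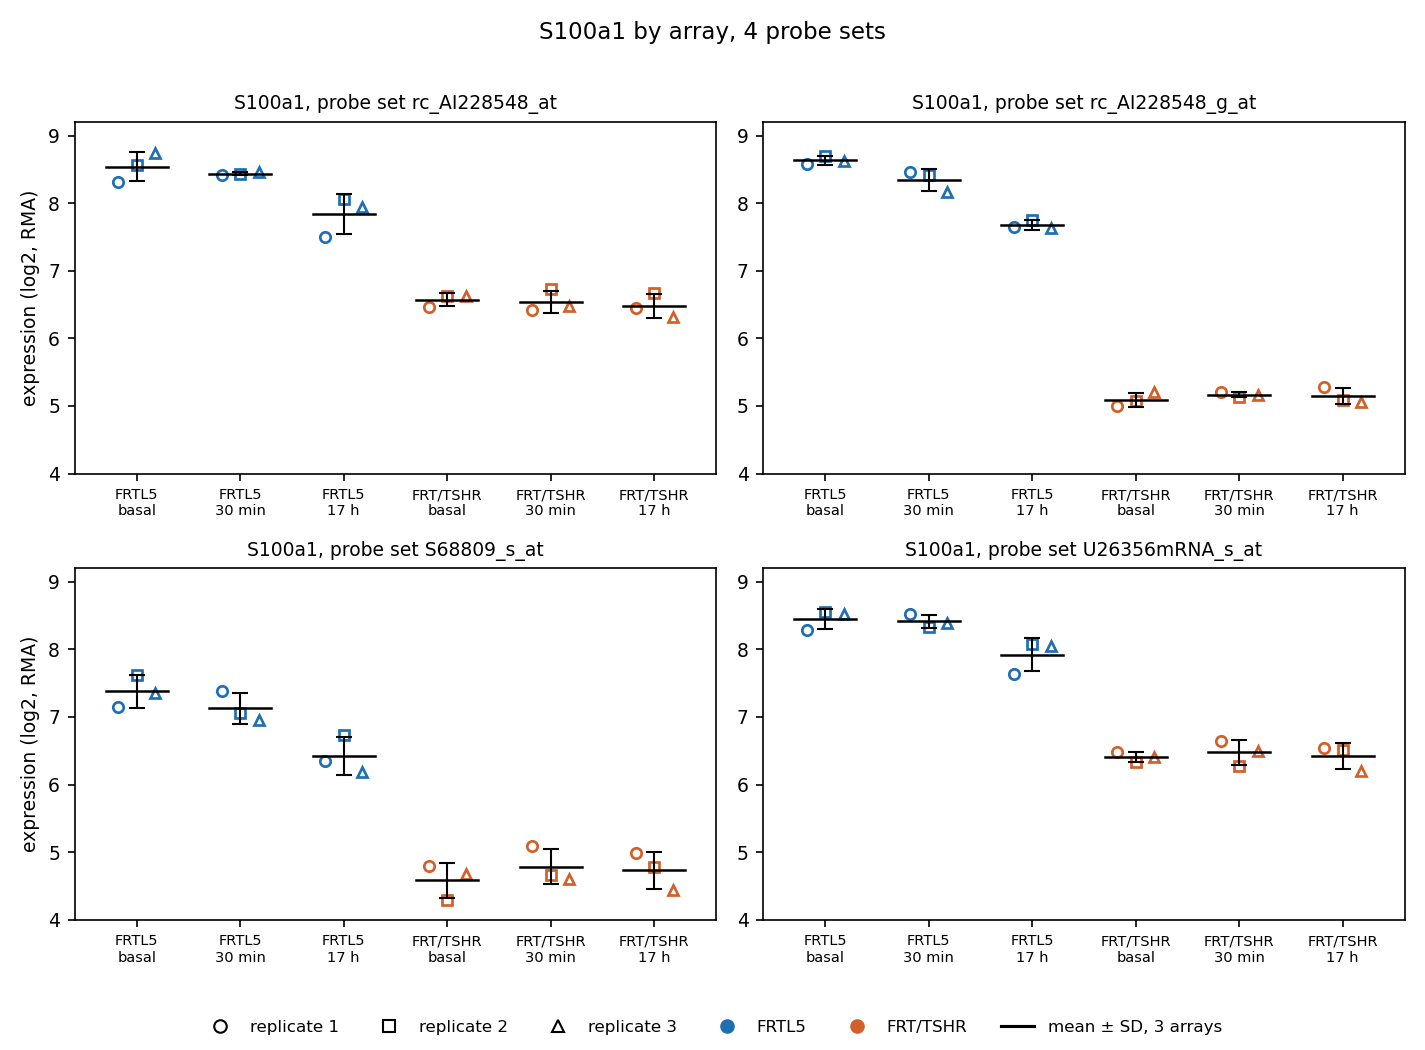
Log2 expression (vertical axis) of the 4 S100a1 probe sets on each array, by group (horizontal axis). Symbols are replicates, and bars are mean ± SD of 3 arrays. In each panel the FRTL5 17 h arrays lie below the FRTL5 basal arrays and above every FRT/TSHR array.

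At 30 min S100a1 had not passed. The FRTL5 arrays read 8.46, 8.41 and 8.16 for rc_AI228548_g_at, all below the basal arrays, with a difference of -0.29 ± 0.10. It had an unadjusted p of 0.0102 and an adjusted p of 1.00. The other 3 probe sets overlapped with basal and had differences of -0.04 to -0.25. In limma 0 of 13 S100 probe sets were called at 30 min, against 0.24% of all probe sets, and 1 had an unadjusted p under 0.05, against 2.76% of all. The groups did not overlap for 2 of 13, against 6.35% of all. The second of these was S100a4 (4.85 to 4.90 against 4.93 to 5.14), with a difference of 0.17 ± 0.21. That SE draws on the spread of all 6 groups. The SD of S100a4 was 0.03 at FRTL5 basal and 0.11 at FRTL5 30 min, but 0.51 at FRT/TSHR 30 min.

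Between 30 min and 17 h in FRTL5 S100a1 was again lower. Here 2 of 13 S100 probe sets were called, against 4.21% of all probe sets, and both were of S100a1. They were rc_AI228548_g_at (-0.67 ± 0.10, adjusted p = 0.00114) and rc_AI228548_at (-0.60 ± 0.15, adjusted p = 0.0292). The other S100a1 probe sets had differences of -0.70 ± 0.20 (S68809_s_at, adjusted p = 0.0582) and -0.49 ± 0.14 (U26356mRNA_s_at, 0.0597). With the replicate number as a block within each line both passed (adjusted p = 0.00846 and 0.0211), so that 4 of 13 were called. S68809_s_at also passed without FRTL5 17 h replicate 2 (0.0421), and U26356mRNA_s_at with quantile normalization (0.0367). Without all FRTL5 arrays numbered 1 neither passed: S68809_s_at was at -0.54 (adjusted p = 0.310) and U26356mRNA_s_at at -0.30 (0.396). The call of rc_AI228548_at was kept in 1 of 6 such fits, the one lacking FRTL5 17 h replicate 2, and the highest adjusted p was 0.122 (FRTL5 17 h replicate 1 left out). Without all FRTL5 arrays numbered 1 it was lost too (0.133). This comparison and that of 17 h with basal share the 17 h arrays.

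In FRT/TSHR the main limma fit, which holds no replicate block, called no S100 probe set at either time, and no other. The share of all probe sets called in that fit was 0% at 30 min, at 17 h and between the times. None of the 13 S100 probe sets had an unadjusted p under 0.05 in these 3 comparisons, against 2.38%, 1.24% and 2.05% of all probe sets. With a replicate block within each line no S100 probe set was called either. The blocked count over all probe sets is not given. S100a1 (rc_AI228548_g_at) read 5.21, 5.13 and 5.16 at 30 min and 5.28, 5.08 and 5.06 at 17 h. These arrays overlapped with basal, and the 17 h difference was 0.05 (95% interval -0.16 to 0.26). The other S100a1 probe sets had 17 h differences of -0.09 (-0.41 to 0.22), 0.15 (-0.27 to 0.57) and 0.01 (-0.29 to 0.30).

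Whether the TSH effect differed between the lines was tested as the FRT/TSHR effect minus the FRTL5 effect. At 17 h 1 of 13 S100 probe sets was called, against 0.789% of all probe sets. It was S100a1 rc_AI228548_g_at, with a difference of 1.00 ± 0.14 (adjusted p = 0.00371), which held in all 12 fits without 1 array. The other 3 S100a1 probe sets had differences in the same direction that did not pass: 1.10 ± 0.28 (S68809_s_at, adjusted p = 0.0805), 0.61 ± 0.21 (rc_AI228548_at, 0.284) and 0.54 ± 0.20 (U26356mRNA_s_at, 0.346). In the blocked fit S68809_s_at and rc_AI228548_at passed (0.0116 and 0.0430), which made 3 of 13. At 30 min 0 of 13 were called, against 0.0343% of all probe sets, and 1 had an unadjusted p under 0.05, against 227 of all 8740. S100a4 and S100a10 had differences between the 17 h effects of -0.39 (95% interval -1.03 to 0.24) and -0.05 (-1.28 to 1.17).

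**Figure D3:**
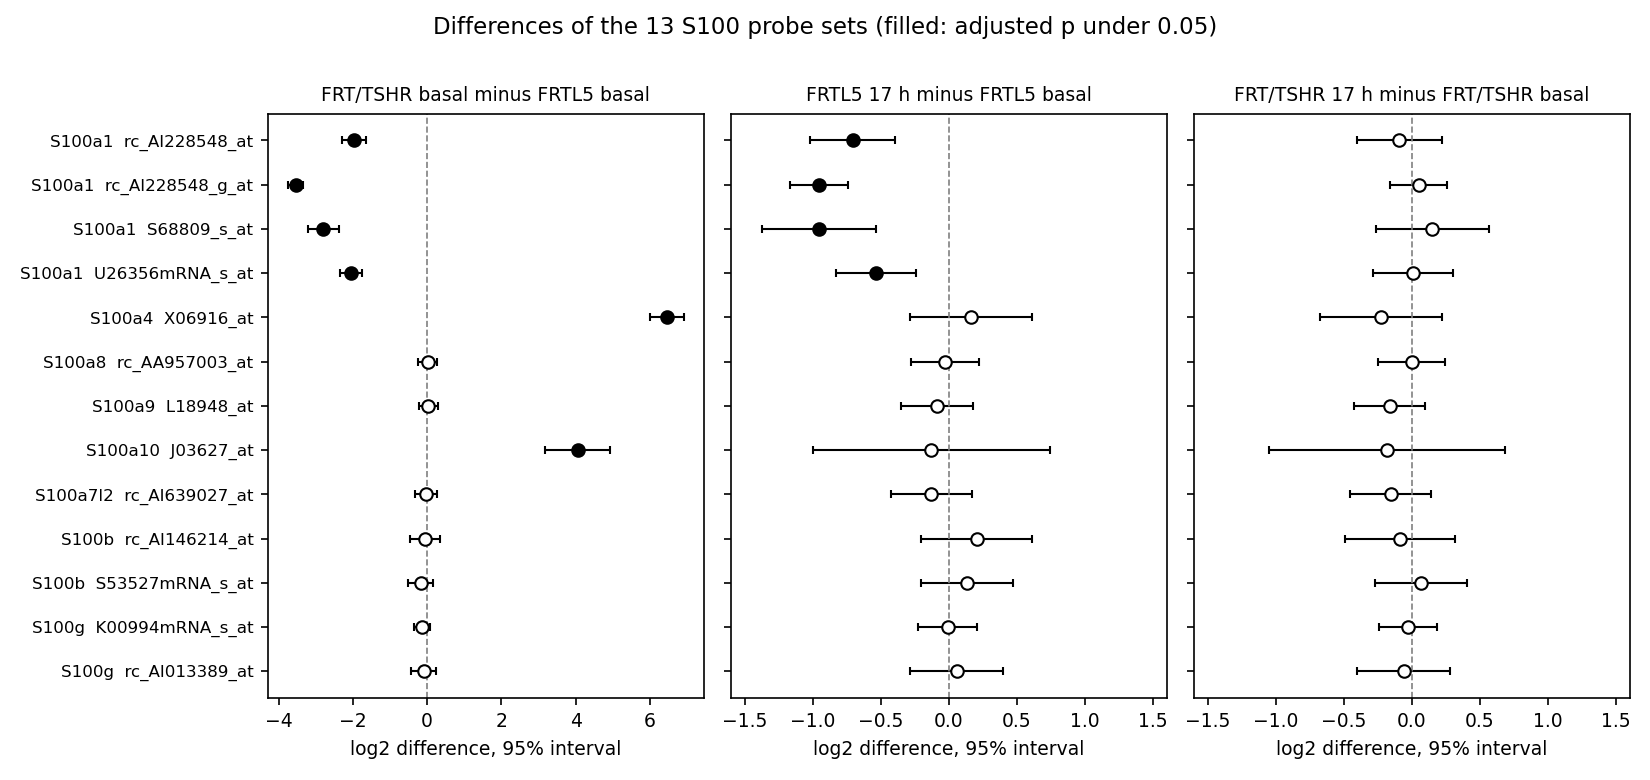
Log2 differences (horizontal axes) of the 13 S100 probe sets (vertical axis) between the basal lines, at 17 h of TSH in FRTL5 and at 17 h in FRT/TSHR, with 95% intervals. Filled points had an adjusted p under 0.05: 6 in the first panel, 4 in the second and 0 in the third. The first panel has a wider horizontal scale.

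The other 5 genes, with 7 probe sets, showed no called difference in any of the 9 comparisons. Of their 63 differences 0 had an unadjusted p under 0.05, and the largest was 0.29 in size. S100a8 and S100a9, the calprotectin subunits, lay between 3.22 and 3.63 and between 3.31 and 3.82 over the 18 arrays, near the lowest value in the table (2.61). Their differences between the basal lines were 0.01 ± 0.12 and 0.04 ± 0.12. S100a7l2, annotated by name as a relative of S100a7, lay between 4.17 and 4.74. S100b, best known from glial cells, read 5.91 to 6.98 on rc_AI146214_at and 4.68 to 5.47 on S53527mRNA_s_at. Its basal lines differed by -0.06 ± 0.19 and -0.17 ± 0.16. S100g, the vitamin D-regulated calcium carrier of gut and kidney, lay between 3.41 and 3.81 (K00994mRNA_s_at) and between 4.30 and 4.89 (rc_AI013389_at). Its 2 probe sets did not move together across the 18 arrays (r = -0.07), while those of S100b did in part (r = 0.61). Whether these signals were above background was not measured, so a low value does not show that a gene is silent.

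**Figure D4:**
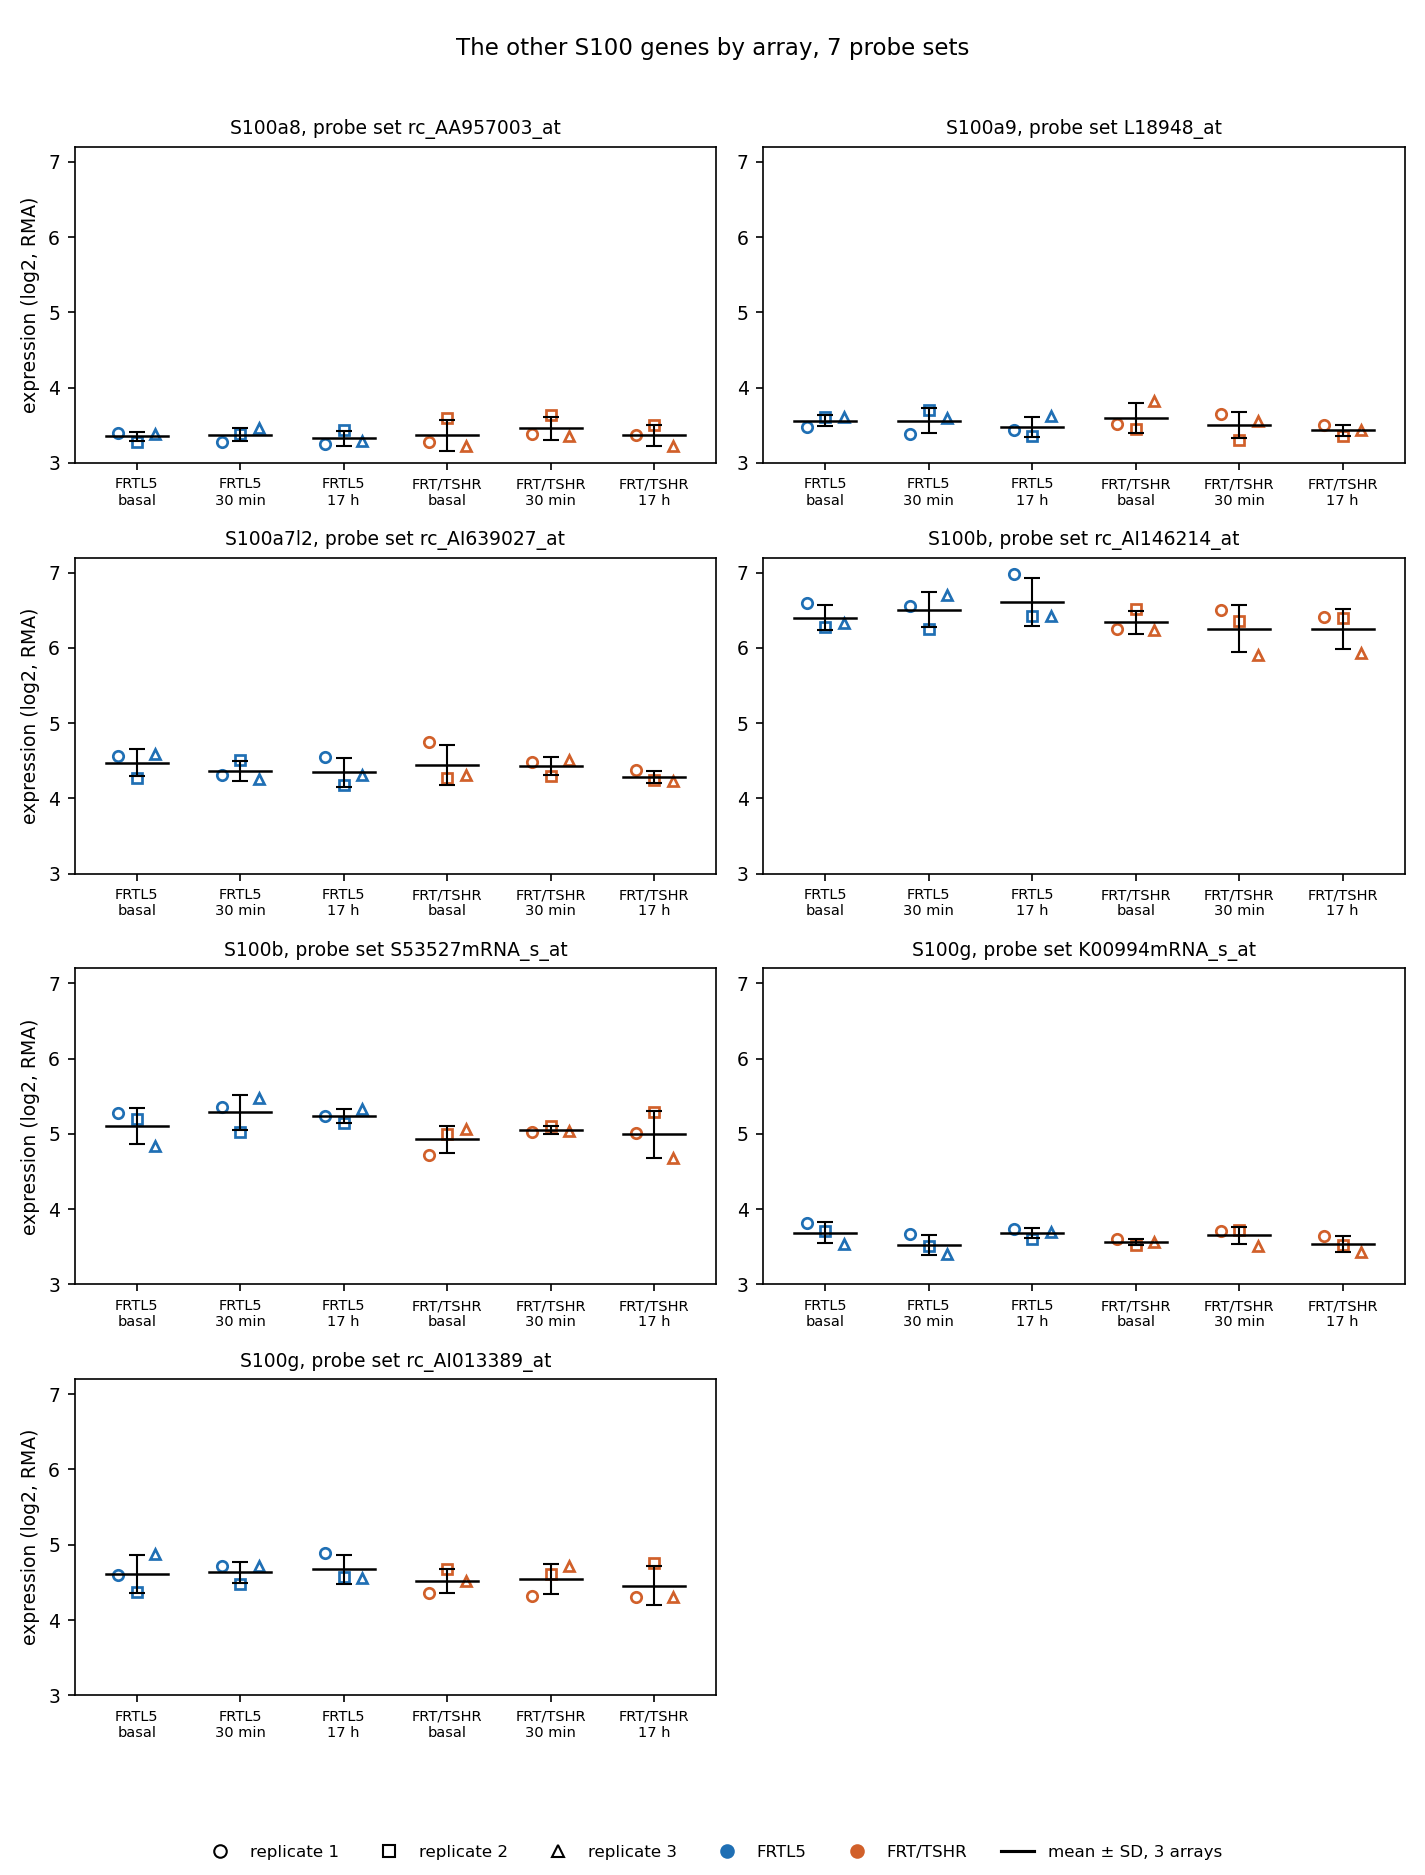
Log2 expression (vertical axis) of the 7 probe sets of S100a8, S100a9, S100a7l2, S100b and S100g on each array, by group (horizontal axis). Symbols are replicates, and bars are mean ± SD of 3 arrays. No TSH group lies wholly apart from its basal group, nor does 1 basal line from the other, and the means of the 6 groups span 0.13 to 0.36.

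The markers of other cell types stood as follows beside these results. Of all probe sets 13.3% were called higher and 12.2% lower in FRT/TSHR basal cells. There 13 of 15 probe sets of thyrocyte markers were called lower than in FRTL5, and 14 were lower by sign. Of these 13 calls 1 did not hold in 2 of the 6 fits that left out an array. Thyroglobulin (Tg, X02318_g_at) had a difference of -7.04 ± 0.37 (adjusted p = 4.7e-10). The summed log2 level of these 15 was 105.6 to 121.6 on FRTL5 arrays and 73.0 to 75.9 on FRT/TSHR arrays. Of 12 epithelial probe sets 9 were called higher and 1 called lower in FRT/TSHR (10 and 2 by sign), with Epcam at 6.19 ± 0.11 and Krt8 at 5.59 ± 0.18. Of the 9 higher calls 2 did not hold in 4 and 5 of the 6 fits that left out an array. The lower call did not hold in 3 of the 6. Of 21 mesenchymal probe sets, a group often read beside S100a4, 3 were called higher, all of Fn1, near the overall share of 13.3%. By sign 17 were higher, and Vim had a difference of 0.62 ± 0.31 that did not pass (adjusted p = 0.176). Mesenchymal sums lay between 104.7 and 108.3 on FRTL5 arrays and between 110.0 and 115.0 on FRT/TSHR arrays. Of 13 leukocyte probe sets 2 were called higher and 1 called lower in FRT/TSHR (5 and 8 by sign). The 2 are near the overall share of 13.3%, and the 1 is below that of 12.2%. Of the 2 higher calls 1 did not hold in 4 of the 6 fits that left out an array. The pan-leukocyte gene Ptprc did not pass on any of 3 probe sets, with -0.12, 0.00 and 0.09. Leukocyte sums ranged from 64.6 to 67.2 on FRTL5 arrays. On FRT/TSHR arrays they were 66.8 to 70.3 at basal, 70.3 to 78.7 at 30 min and 69.3 to 70.2 at 17 h. For the 4 glial and 4 endothelial probe sets the sums were 21.2 to 22.6 and 17.8 to 18.7 in FRTL5 and 18.9 to 19.8 and 17.3 to 18.5 in FRT/TSHR, and those of the 4 C cell probe sets 18.5 to 19.1 and 18.3 to 19.1. At basal 1 glial probe set, of Pmp22 (S55427_s_at), was called lower in FRT/TSHR, and no endothelial or C cell probe set was called. By sign 3 glial, 4 endothelial and 3 C cell probe sets were lower. Vim and Ptprc were singled out after their values were seen. The part of these markers in the S100 differences was not tested.

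Proteins that bind S100 proteins were followed as a list of 29 genes, of which 17 had 31 probe sets. Between the basal lines 10 of the 31 were called higher and 2 called lower in FRT/TSHR, against 13.3% and 12.2% of all probe sets. By sign alone 24 were higher and 7 lower, with a median difference of 0.22 against -0.04 over all probe sets. Anxa2, the partner of S100A10, read 11.98 in FRT/TSHR against 10.11 in FRTL5 on average, a difference of 1.87 ± 0.17 (adjusted p = 4.7e-07). Anxa1 had differences of 5.53 ± 0.32 and 5.22 ± 0.41 (S57478cds_s_at and rc_AI171962_s_at). Plat, the tissue plasminogen activator, and Plaur, the receptor of urokinase, were higher by 3.75 ± 0.33 and 2.00 ± 0.16. The remaining probe sets called higher were 3 of Mdm2 and 1 each of Atp2a2 and Mapt. Each of these genes also had probe sets that were not called. The 10 higher calls include 2 of Anxa1 and 3 of Mdm2, so they stand for fewer genes. The call of 1 of the 3 Mdm2 probe sets (AA108308_s_at) did not hold in 2 of the 6 fits that left out an array. Called lower were Anxa6 on X86086_g_at, at -1.20 ± 0.16, and Ager, the receptor through which several S100 proteins signal, at -0.51 ± 0.12 (adjusted p = 0.00382).

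**Figure D5:**
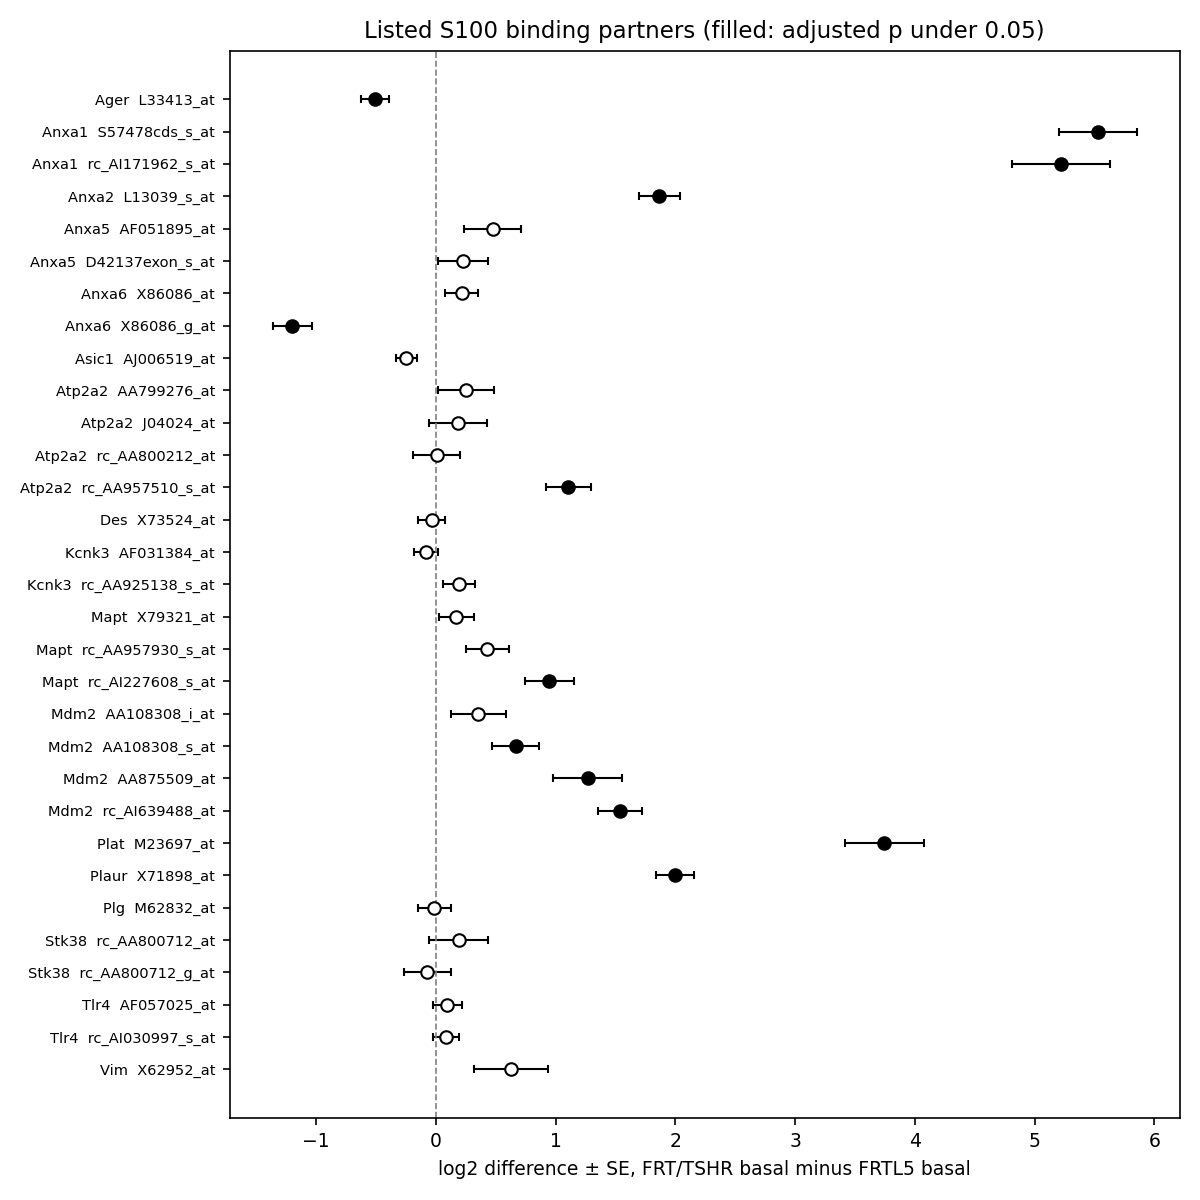
Log2 difference ± SE (horizontal axis) between the basal lines for each of the 31 probe sets of listed S100 binding partners (vertical axis). Positive values are higher in FRT/TSHR, and filled points had an adjusted p under 0.05, 10 to the right of 0 and 2 to the left.

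At 17 h of TSH in FRTL5 0 of the 31 partner probe sets were called higher and 2 called lower, against 3.56% of all probe sets called. By sign alone 18 were higher and 13 lower, with a median difference of 0.04 against 0.01 over all probe sets. Both were of Anxa5, at -1.03 ± 0.24 and -0.83 ± 0.21 (AF051895_at and D42137exon_s_at, adjusted p = 0.0236 and 0.0392). Their calls failed in 3 and 6 of the 6 fits that left out an array, the worst being 0.103 (FRTL5 basal replicate 3 left out) and 0.144 (FRTL5 17 h replicate 1 left out). Anxa2 had a difference of -0.32 ± 0.17 at 17 h that did not pass (adjusted p = 0.520). At 30 min 0 partner probe sets were called in FRTL5, and 21 of 31 were higher by sign.

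The wider set of EF-hand calcium binders, 23 measured genes with 37 probe sets, had 4 called higher and 5 called lower in FRT/TSHR at basal, near the shares of 13.3% and 12.2% over all probe sets. By sign 15 were higher and 22 lower (median difference -0.08). Of the 4 higher calls 1 did not hold in 2 of the 6 fits that left out an array. Of the 5 lower calls 2 did not hold in 1 and 2 of these fits. The neuronal calcium sensors Vsnl1 and Ncs1 (L27421_at) were higher, by 1.13 ± 0.18 and 0.94 ± 0.15. The Ncs1 probe set rc_AI136914_at was not called. The extracellular matrix protein gene Sparc (rc_AA946313_s_at) and the mitochondrial dehydrogenase gene Gpd2 (X78593_g_at) were lower, at -0.93 ± 0.14 and -1.05 ± 0.17. The other Sparc probe sets (rc_AA891204_s_at, rc_AA892248_at and Y13714_at) were not called, and neither was Gpd2 on U83879_at. None of the 37 was called in FRTL5 at 17 h against basal, where the signs were likewise 15 higher and 22 lower. Of the calcium pumps, channels and stores, 28 measured genes with 65 probe sets, 1 was called higher and 9 called lower in FRT/TSHR at basal. The 9 are near the overall share of 12.2%, and the 1 is below that of 13.3%. The 1 called higher was the Atp2a2 probe set also counted among the binding partners. By sign 21 of the 65 were higher and 44 lower (median -0.11). Of the 9 calls 6 did not hold in 2 to 5 of the 6 fits that left out an array. Among the 3 that held in all 6 fits were Itpr1, a calcium release channel of the endoplasmic reticulum (J05510_at, -1.46 ± 0.24), and Atp2c1, a Golgi calcium pump (-1.27 ± 0.19). In FRTL5 at 17 h 1 of the 65 was called, Itpr1 (J05510_at, -0.90 ± 0.24, adjusted p = 0.0472), a call that failed in 4 of 6 such fits, the worst at 0.214 (FRTL5 17 h replicate 3 left out). From a list of 16 other S100 and S100-fused genes only Flg and Tchh had probe sets, 1 each, and neither was called at basal.

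The genes whose values ran most like each variable S100 gene over the 18 arrays were named by Pearson r, as a description. All 18 points share the split between the lines, which sets most of each r. For S100a4 they were Capg (r = 0.998), Tspan8 (0.998) and Krt8 (0.998). For S100a10 they were the thrombin receptor gene F2r (0.990), Anxa1 (0.988) and Fn1 (0.985). For S100a1 (rc_AI228548_at) they were Cabp1, itself an EF-hand calcium binder (0.993), Cst3 (0.992) and Gsta4 (0.991).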

How the data were processed

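Total RNA (10 µg) of the 18 samples was hybridised as biotin-labelled cRNA to 1-colour Affymetrix arrays, per the labels' protocols. The deposited table holds log2 values per probe set, which the authors made with RMA, per the submitters' processing notes. RMA corrects background, normalizes across arrays and summarizes probes. The version of RMA is not given in the sources used here. Values ran from 2.61 to 13.58, with array medians of 5.47 to 5.58, as on a log2 scale. The highest correlation between arrays was 0.996, and at most 0.0229% of values were identical between any 2 arrays.

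Of 8799 probe sets 59 controls were left out and 8740 tested, with no filter on signal. The platform annotation gave 1 symbol to 7006, several to 308 and none to 1426, and no probe set with several symbols listed an S100 member. Means of the 6 groups were fitted with limma 3.58.1 in R 4.3.3 (lmFit, eBayes), which left 12 residual degrees of freedom and added 3.60 prior ones. P-values were two-sided, with Benjamini-Hochberg adjustment over all 8740 probe sets in each of 9 comparisons. The script was tested on simulated data. Errors are limma SE or the SD of 3 arrays, and intervals are 95%.

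The members, gene lists and tests were chosen with earlier results of these data known, and a list is described by its counts. Named were all member probe sets, annexins and receptors that bind S100 proteins, up to 4 members per list with the smallest p, and 3 genes like each member whose group means spanned over 1 log2 unit. The labels number replicates 1 to 3 in each group. Deviations of same-numbered arrays from their group means correlated at 0.15 to 0.80 within FRTL5 and 0.16 to 0.62 within FRT/TSHR. Differently numbered arrays correlated at -0.41 to -0.03 within FRT/TSHR, apart from the same-numbered ones. Within FRTL5 they correlated at -0.64 to 0.63, which overlaps, so pairing there is less clear. Deviations of the 3 arrays in a group cancel out, so positive values for same-numbered arrays force negative ones, on average, for the others. Part of the separation within FRT/TSHR is therefore fixed by the calculation. Between lines same-numbered arrays did not pair (-0.22 to 0.42). The main fit holds no replicate block, and a block within each line was run as an alternative. The blocked fit is given where it changes a call. The labels call the replicates biological but do not describe their cultures. Alternatives were a replicate block, a fit of only the arrays compared, leaving out arrays, median centring, quantile normalization, an intensity trend, a signal filter and a 2-fold minimum.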

Additional observations from a re-analysis of the deposited data

Results flagged for a closer look

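On 1 of the 4 S100a1 probe sets the 17 h effect of TSH differed between the lines by a test of the difference itself. For probe set rc_AI228548_g_at the FRT/TSHR effect minus the FRTL5 effect was 1.00 (log2, adjusted p = 0.00371), with -0.95 in FRTL5 and 0.05 in FRT/TSHR. The other 3 S100a1 probe sets did not pass in that fit. In FRT/TSHR rc_AI228548_g_at lay between 5.00 and 5.28, and whether a fall from there could be measured was not tested. No probe set on the array was called for TSH in FRT/TSHR in the main fit, which holds no replicate block. Medium and TSH dose differed with the line and cannot be told apart from it. Groups of 3 arrays were too small to test for single arrays that stand apart.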

How the results depend on the processing

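The 6 calls between the basal lines held under every alternative that tested them, and 0 S100 probe sets were called in FRTL5 at 30 min, in FRT/TSHR or for the 30 min difference between lines under any. For FRTL5 at 17 h against basal the count of 4 became 1 when the other groups were left out of the model and 0 with a 2-fold minimum. It was 3 with an intensity trend, 3 without all FRTL5 arrays numbered 1 and 2 to 4 without 1 array. For 17 h against 30 min the count of 2 became 4 with the replicate block, 3 with quantile normalization, 1 when the other groups were left out, 1 without all FRTL5 arrays numbered 1, 0 with a 2-fold minimum and 1 to 3 without 1 array. For the 17 h difference between lines the count of 1 became 3 with the replicate block. The replicate block changed no other S100 call (with a block shared by both lines for the basal comparison, 6 calls). No called difference reversed, and of 175 alternative values of called differences 154 kept their call. Of 1430 values that were called neither way, 155 changed sign. Centring and quantile normalization moved the median of all probe sets by at most 0.041. The cause of these changes was not tested. Signal over background was not measured, so low S100 values set no limit on expression.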
